A study of Mus musculus with 24 samples.

Results

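The 9 genes described here encode C-type lectin receptors of myeloid cells: Mrc1, Mgl2, Clec10a, Clec7a, Clec4n, Clec4d, Clec4e, Clec4a2 and Clec5a. They were taken by name, each symbol being matched to 1 Ensembl identifier of a table that holds read counts for 56884 genes, and none was chosen by a threshold on these data. All 9 passed the filter on low counts and so were among the 13679 genes tested. Bone marrow–derived macrophages (BMDM), cultured from marrow in the presence of M-CSF, came from 4 wild-type female C57BL/6J mice aged 9 weeks. Each mouse gave 1 RNA sequencing library in each of 6 groups, 24 libraries in all. Naive macrophages received no cytokine. IL-4/IL-13–treated macrophages received IL-4 and IL-13, each at 20 ng/ml, for 24 hours. In the other 4 groups an inhibitor was given 1 hour before these cytokines and kept with them. The inhibitors were tunicamycin at 5 µg/ml, which blocks N-linked glycosylation and stresses the endoplasmic reticulum (ER), Sal003 at 10 µM, which blocks dephosphorylation of the initiation factor eIF2α, and oligomycin at 1 µM, an inhibitor of ATP synthase in mitochondria. Oligomycin was used in 2 groups, and ISRIB at 1 µM, a compound that counteracts the integrated stress response (ISR), was present in 1 of them. The labels disagree on which one. Oligomycin set A holds ISRIB by its titles and lacks it by its library names, oligomycin set B is the reverse, and measured values were not used to decide. All cells are a culture model grown from marrow precursors, and the age, sex and genotype of the mice were the same in every group.

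C-type lectin receptors bind sugars on microbes, on dying cells and on self glycoproteins. Mrc1 (the mannose receptor CD206) and the galactose-type lectins Mgl2 and Clec10a take up glycoproteins, and Mrc1 and Mgl2 are textbook markers of macrophages stimulated with IL-4. Clec7a (Dectin-1) recognizes β-glucan and signals through its own cytoplasmic motif to the kinase Syk. Clec4n (Dectin-2), Clec4d (the macrophage C-type lectin MCL) and Clec4e (Mincle) recognize fungal and mycobacterial surface components and signal through the Fc receptor γ chain, Syk and the adaptor CARD9. Clec4a2 belongs to the DCIR family, and Clec5a signals through the adaptor DAP12.

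The genes lie on 3 chromosomes of the mouse genome (GRCm39, GENCODE annotation). Mrc1 (ENSMUSG00000026712) is at chr2:14234151-14336926 on the plus strand and has 30 exons in its main transcript. Mgl2 (ENSMUSG00000040950, chr11:70020954-70028376) and Clec10a (ENSMUSG00000000318, chr11:70047023-70061660) are neighbors on the plus strand of chromosome 11. Chromosome 6 carries the other 6 genes. Clec4a2 (ENSMUSG00000030148, chr6:123083387-123120958), Clec4n (ENSMUSG00000023349, chr6:123206802-123223980) and Clec4d (ENSMUSG00000030144, chr6:123239070-123252230) follow each other on the plus strand, with Clec4e (ENSMUSG00000030142, chr6:123258748-123266829) next to them on the minus strand. Clec7a (ENSMUSG00000079293, chr6:129438554-129449742) and Clec5a (ENSMUSG00000029915, chr6:40551234-40562773) are also on the minus strand. No exon of the 9 genes overlaps another gene on its own strand. On the opposite strand 0.5% of the exon bases of Clec4a2 and 1.0% of those of Clec5a are overlapped, and whether reads were counted by strand is not given in the sources used here.

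Mgl2 and Clec10a share sequence, which bears on how far their counts can be told apart. Their coding sequences of 996 and 912 bases can be aligned over 910 positions, of which 838 (92.1%) are identical. The longest identical run, shown because it is longer than a read of 150 bases, has 183 bases and starts at coding base 547 of Mgl2 (chr11:70027163-70027525, across introns) and at coding base 499 of Clec10a (chr11:70060648-70061015, across introns).
Mgl2 and Clec10a shared run: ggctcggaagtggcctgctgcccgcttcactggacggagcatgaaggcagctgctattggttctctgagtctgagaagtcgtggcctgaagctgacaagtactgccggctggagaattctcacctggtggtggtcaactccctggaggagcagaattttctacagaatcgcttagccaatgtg
A read that lies wholly inside this run cannot be assigned to either gene, and reads with more than 1 best alignment were not counted. Elsewhere the genes differ. The 60-base stretch of the alignment with the most differences, 19, lies near the end of the coding sequences, at chr11:70027775-70027834 for Mgl2 and chr11:70061272-70061331 for Clec10a. It is shown with the differing bases in capitals.
Mgl2: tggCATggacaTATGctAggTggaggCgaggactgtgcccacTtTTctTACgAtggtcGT
Clec10a: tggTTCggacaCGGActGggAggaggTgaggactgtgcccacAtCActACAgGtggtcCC
Over whole transcripts, 10.6% of the 50-base stretches of Mgl2 also occur in Clec10a and 8.5% of those of Clec10a in Mgl2. For stretches of 100 bases the shares are 3.2% and 2.6%. Clec4a2 shares 6.6% of its 50-base stretches with other genes, mainly its neighbors Clec4a4 and Clec4b1, Clec4n shares 0.7%, and the other 5 genes share none.

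The 300 bases before the start site of the main transcript were searched on both strands for the core of the site of PU.1, the myeloid transcription factor, GAGGAAG. It occurs in the windows of Mrc1, Mgl2, Clec10a, Clec4d, Clec4a2 and Clec5a, and in 12.1% of 21653 windows of protein-coding genes. The last 100 bases before the start site, on the strand of the gene, are shown for the 4 genes in which it falls there. The core is in capitals, and CTTCCTC is its reverse complement.
Mrc1 (chr2:14234051-14234150, plus strand): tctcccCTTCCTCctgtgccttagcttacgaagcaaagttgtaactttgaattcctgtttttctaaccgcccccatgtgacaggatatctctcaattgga
Mgl2 (chr11:70020854-70020953, plus strand): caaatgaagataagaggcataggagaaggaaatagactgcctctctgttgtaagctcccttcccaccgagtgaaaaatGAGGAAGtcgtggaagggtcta
Clec4a2 (chr6:123100173-123100272, plus strand): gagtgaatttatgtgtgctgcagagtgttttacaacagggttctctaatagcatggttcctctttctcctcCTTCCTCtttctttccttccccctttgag
Clec5a (chr6:40562774-40562873, minus strand): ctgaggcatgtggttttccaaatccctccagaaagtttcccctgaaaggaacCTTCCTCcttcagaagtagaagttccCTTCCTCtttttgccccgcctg
The 4 genes so marked had unlike patterns across the groups. The letters TTCNNNNGAA, the spacing bound by STAT6, were found before Clec7a and Clec5a (7.39% of all windows), and TTCNNNGAA before Clec10a and Clec4n (9.22%). TGATGNAA, a composite C/EBP-ATF site, was found before none of the 9 (4.07% of all windows). No matches overlapped, and the window of Clec4d lies in annotated exons for 184 of its 300 bases. These are matches of letters only.

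Of the naive libraries that of mouse 2 stood apart, with a chi-square per gene of 27.3 to 35.9 against the other 3, which had 6.05 to 7.98 among themselves. In the other groups the values ran from 2.19 to 22.0, the highest being mouse 4 against mouse 5 with Sal003. Changes with IL-4/IL-13 and with tunicamycin against naive macrophages are therefore also given without mouse 2.

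The labelled cell type was checked against marker genes, in TPM, counts per exon length relative to their sum in the library. All 8 macrophage markers of the list used were read in every group. With IL-4/IL-13 none rose and 7 fell, against 30.1% and 30.4% of all genes, 4 of them by at least 2.5-fold (6.08%). Compared with IL-4/IL-13 alone, 4 rose and 3 fell with tunicamycin, against 38.7% and 37.6%. By at least 2.5-fold 3 rose and 3 fell, against 8.56% and 14.0%. In each other inhibitor group some rose and some fell, which a sum does not show. The summed level of these markers had a median of 48556 TPM in naive and 15727 TPM in IL-4/IL-13–treated libraries, with Lyz2 the most abundant. It was 27271 TPM with tunicamycin, 20271 TPM with Sal003, 15024 TPM in set A and 20317 TPM in set B. Markers of neutrophils and their precursors summed to 188 TPM in naive, 126 TPM in IL-4/IL-13–treated, 0.557 TPM in tunicamycin-treated, 22.4 TPM in Sal003-treated, 12.1 TPM in set A and 68.7 TPM in set B libraries (medians). S100a9 was the most abundant except with tunicamycin, where S100a8 was, and Ly6g, Camp and Elane had no read with tunicamycin or in set A. A gene without a read can still hold up to 3 counts per library. Neutrophils can also express Clec4d, Clec4e and Clec5a, and the part of such cells in the results was not tested. Dendritic cell markers summed to 32.8, 286, 20.8, 109, 58.9 and 106 TPM in the same order of groups. Batf3 was the most abundant in each group, at a mean of 20.0 TPM in naive libraries and 270.0 TPM with the cytokines. Of the 6 tested genes of the list, 2 rose and 2 fell with IL-4/IL-13, against 30.1% and 30.4% of all genes. Compared with IL-4/IL-13 alone, 5 fell in each of the 4 inhibitor groups, as Mgl2 did. The shares of all genes that fell were 37.6% for tunicamycin, 24.6% for Sal003, 32.2% for set A and 26.4% for set B. With tunicamycin 1 gene of the list rose by at least 2.5-fold, and with Sal003 1 did, against 8.56% and 2.68% of all genes. Each oligomycin set had 1 gene that did not pass the test. Xcr1 had no read in naive, IL-4/IL-13–treated and Sal003-treated libraries. Dendritic cells also express Clec10a and Mgl2, and their part in the results was not tested either. T and NK cell markers reached at most 1.46 TPM in any library, B cell markers at most 2.91 TPM and mast cell and basophil markers at most 3.24 TPM. Fibroblast markers had a median of 42.8 TPM in naive and 24.7 TPM in IL-4/IL-13–treated libraries and between 8.56 and 14.9 TPM in the other groups. In libraries of bulk cells, fewer cells of a type and less RNA per cell cannot be told apart.

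IL-4/IL-13 changed 7 of the 9 receptor genes and did so in opposite directions. Mrc1, Mgl2, Clec7a and Clec4a2 rose, by 3.24-fold, 115-fold, 4.07-fold and 1.53-fold. The genes of the Fc receptor γ chain–coupled receptors fell, Clec4n by 8.86-fold, Clec4d by 9.95-fold and Clec4e by 8.69-fold. Clec10a and Clec5a did not pass the test. A gene is said to have risen or fallen where its adjusted P was under 0.05 (edgeR's quasi-likelihood test, Benjamini-Hochberg adjustment over all 13679 genes, 1 model over the 24 libraries). Of all genes tested, 30.1% rose and 30.4% fell by this rule, 5.39% rose by at least 2.5-fold and 6.08% fell by at least 2.5-fold, and the counts of receptor genes are to be read beside these shares. By the stricter rule 3 of the 9 receptor genes rose and 3 fell. Their median log2 fold change was 0.08, against -0.02 over all genes. Without mouse 2 the changes against naive macrophages were 1.66 for Mrc1, 6.93 for Mgl2, 2.04 for Clec7a, 0.67 for Clec4a2, -3.08 for Clec4n, -3.18 for Clec4d and -3.02 for Clec4e on the log2 scale, and each still passed. Clec10a then passed too, as given with that gene, and Clec5a had -0.01. For tunicamycin against naive macrophages the values without mouse 2 were -1.35 for Mrc1, -3.17 for Clec7a, 1.60 for Clec4e, 0.26 for Clec4a2 and 2.62 for Clec5a, all past the test, and Mgl2 lost its call. The changes in this and the other main comparisons are shown with their intervals.

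**Figure D1:**
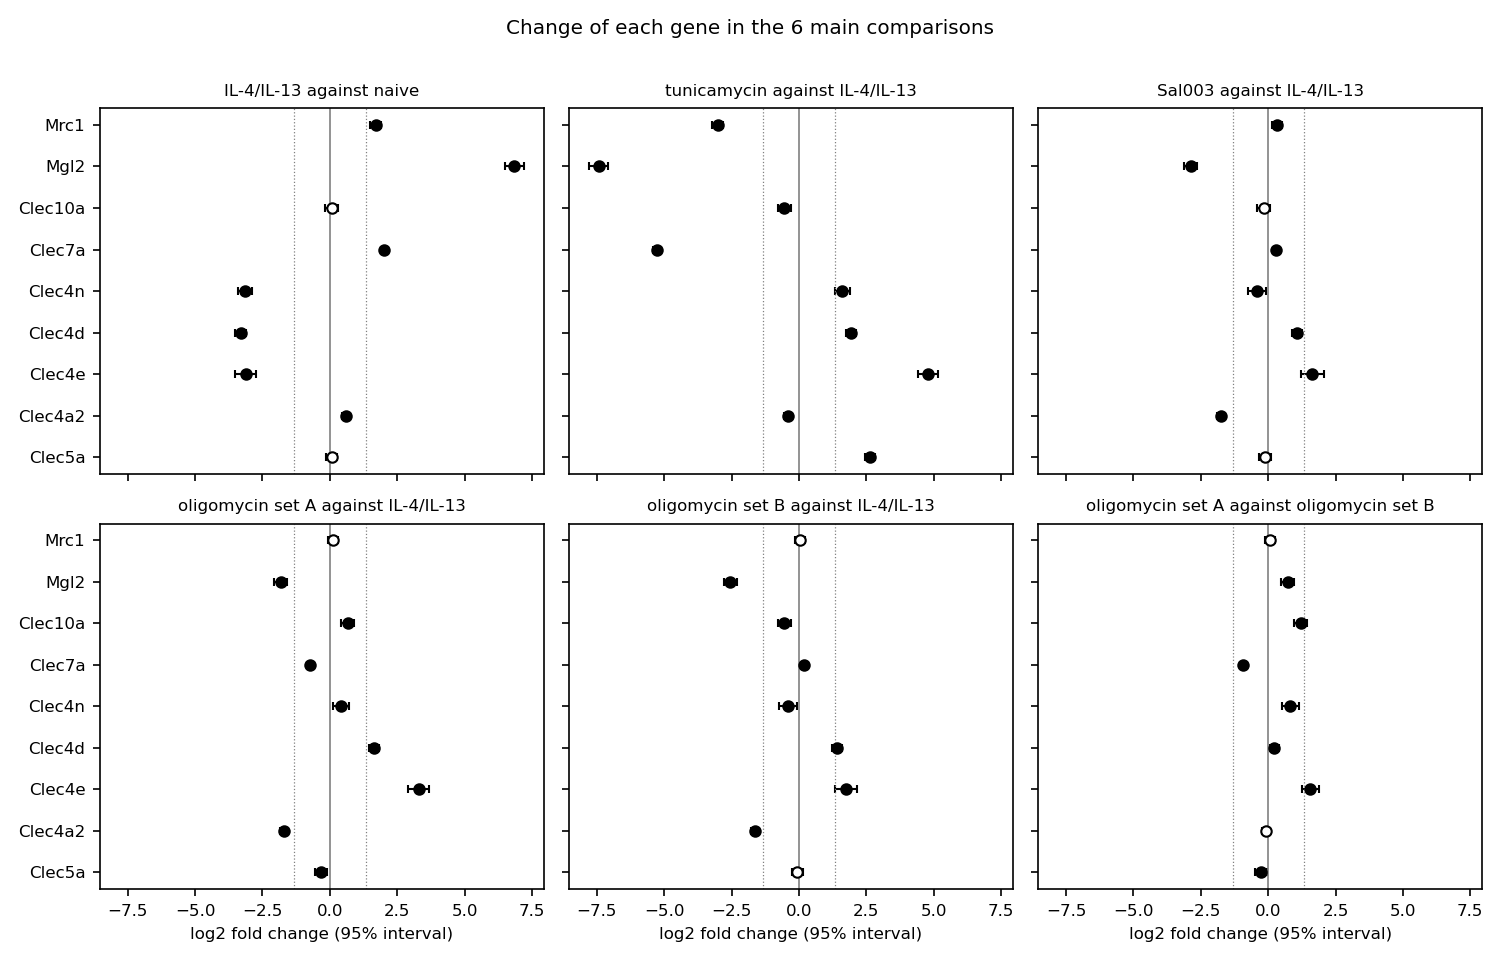
Log2 fold change of each receptor gene (horizontal axis) in the 6 main comparisons, 1 panel each, with the 95% interval of edgeR's quasi-likelihood fit. Filled points have an adjusted P under 0.05, open points do not, and dotted lines mark a 2.5-fold change. Mgl2 had 6.84 for IL-4/IL-13 against naive and -7.43 for tunicamycin against IL-4/IL-13. Clec4n, Clec4d and Clec4e were negative in the former comparison and positive in the latter.

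Mrc1 encodes the mannose receptor. Its level in mice 1, 2, 4 and 5, in this order here and below, was 191, 177, 224 and 192 CPM in naive macrophages (CPM, a gene's counts relative to the normalized library size). With IL-4/IL-13 it was 558, 624, 736 and 619 CPM. Every cytokine-treated library lay above every naive one, and the change on the log2 scale was 1.69 (standard error 0.09, adjusted P = 2.6e-14) by edgeR's quasi-likelihood test. With tunicamycin the level was 75.1, 75.4, 85.9 and 76.4 CPM, below all naive libraries. The change was -3.02 (standard error 0.10, adjusted P = 1.9e-19) against IL-4/IL-13 alone and -1.33 (standard error 0.09, adjusted P = 1.7e-12) against naive macrophages (edgeR). Tunicamycin is the only inhibitor with which Mrc1 fell. Sal003 gave 748, 803, 849.8 and 757 CPM, each library above all 4 with the cytokines alone, a change of 0.32 (standard error 0.09, adjusted P = 0.004) by edgeR. Set A had 646, 709, 764 and 619 CPM. Set B had 607, 725, 714 and 573 CPM. Both sets overlapped with IL-4/IL-13 alone, with changes of 0.11 (95% interval -0.07 to 0.29, adjusted P = 0.27) and 0.05 (-0.13 to 0.23, adjusted P = 0.69) by edgeR. From low to high the order of the means was tunicamycin, naive, IL-4/IL-13, set B, set A and Sal003. Within it, neighbors from IL-4/IL-13 to Sal003 did not pass the test, the nearest to it being set A against Sal003 (-0.21, adjusted P = 0.053, edgeR). That pair passed under 6 of the other ways of processing and without mouse 4 (-0.22, adjusted P = 0.019, edgeR).

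Mgl2, a galactose-type lectin, had the largest range of the 9 genes on the log scale. Naive libraries had 3.07, 3.87, 3.54 and 2.88 CPM, from 58 to 68 counts each. IL-4/IL-13–treated libraries had 391, 374, 385 and 380.1 CPM, which lie closer together on the log scale than those of any other group of this gene. The change on the log2 scale was 6.84 (standard error 0.16, adjusted P = 4.3e-21) by edgeR's quasi-likelihood test. Tunicamycin brought the level to 2.21, 1.86, 2.38 and 2.45 CPM, below every naive library. The change was -7.43 (standard error 0.17, adjusted P = 4.5e-22) against the cytokines alone, and -0.58 (standard error 0.25, adjusted P = 0.037) against naive macrophages, a call that was lost without mouse 1 (-0.58, adjusted P = 0.087) or mouse 2 (-0.43, adjusted P = 0.22, edgeR). Unlike Mrc1, Mgl2 fell with every inhibitor. Sal003 left 55.7, 44.1, 64.7 and 44.1 CPM, a change of -2.88 (standard error 0.12, adjusted P = 1.7e-15) by edgeR. Set A had 118, 96.9, 125 and 92.9 CPM and changed by -1.82 (standard error 0.12, adjusted P = 6.5e-13). Set B had 75.1, 58.2, 77.1 and 52.5 CPM and changed by -2.55 (standard error 0.12, adjusted P = 6.7e-15) (edgeR). In these 3 groups the lowest library stood above the highest naive one, so none was back at the naive level. The means rose in the order tunicamycin, naive, Sal003, set B, set A and IL-4/IL-13. Of its neighbors, Sal003 and set B did not pass the test (set B against Sal003 0.33, adjusted P = 0.057), although set B was higher in 4 of 4 mice and the mouse as a replicate block gave 0.33, adjusted P = 0.0028 (edgeR).

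Clec10a, the neighbor with the shared sequence, did not follow Mgl2. Its naive libraries had 43.5, 64.2, 43.5 and 36.6 CPM, of which mouse 2 was highest. IL-4/IL-13–treated libraries had 49.7, 51.2, 48.2 and 48.7 CPM, inside the naive range, and the change of 0.08 did not pass the test (95% interval -0.16 to 0.32, adjusted P = 0.58, edgeR). Without mouse 2 it was 0.25, adjusted P = 0.043 (edgeR). Set A stood apart with 76.8, 74.9, 90.7 and 69.7 CPM, above every library of the other groups. There the change was 0.66 (standard error 0.11, adjusted P = 1.7e-05) against the cytokines alone, a rise where Mgl2 fell. Set B had 30.4, 36.6, 37.8 and 31.1 CPM, a fall with a change of -0.54 (standard error 0.12, adjusted P = 3.8e-04). Tunicamycin libraries had 32.9, 31.1, 38.8 and 33.4 CPM, a change of -0.54 (standard error 0.12, adjusted P = 2.3e-04) (edgeR). Sal003 had 40.7, 44.4, 46.2 and 45.4 CPM, each library below all 4 with the cytokines alone, but its change of -0.16 missed the threshold (95% interval -0.40 to 0.08, adjusted P = 0.26, edgeR). In the model with those 2 groups alone it passed (-0.18, adjusted P = 0.005, edgeR). The order of the means was set B, tunicamycin, Sal003, naive, IL-4/IL-13 and set A. Set B and tunicamycin did not differ beyond their spread (0.00, 95% interval -0.24 to 0.25), and no pair among Sal003, naive and IL-4/IL-13 passed the test. When the counts of Mgl2 and Clec10a were summed, the pair changed on the log2 scale by 3.11 with IL-4/IL-13. Against IL-4/IL-13 alone, its values were -3.58 for tunicamycin, -2.17 for Sal003, -1.21 for set A and -2.12 for set B.

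Clec7a, the β-glucan receptor Dectin-1, rose with the cytokines and was the most abundant of the 9 per exon length in macrophages treated with them. Naive libraries had 242, 264, 274 and 275 CPM. With IL-4/IL-13 the level was 1025, 1037, 1150 and 1080 CPM, a change on the log2 scale of 2.03 (standard error 0.06, adjusted P = 2.5e-19) by edgeR's quasi-likelihood test. Tunicamycin reduced it to 31.2, 23.2, 29.7 and 27.0 CPM. All 4 of these libraries were far under the naive ones, and the change against the cytokines alone was -5.27 (standard error 0.07, adjusted P = 3.3e-26) and against naive macrophages -3.25 (standard error 0.07, adjusted P = 5.5e-23) (edgeR). With Sal003 the gene was at 1311, 1277, 1314 and 1328 CPM, above each library with the cytokines alone (0.29 (standard error 0.06, adjusted P = 2.1e-04), edgeR). Set B had 1233, 1209, 1199 and 1286 CPM, also above them all, with a change of 0.20 (standard error 0.06, adjusted P = 0.0054). That call was lost without mouse 1 (0.16, adjusted P = 0.053) or mouse 5 (0.17, adjusted P = 0.083, edgeR). Set A went the other way, with 652, 639, 649 and 657 CPM and a change of -0.72 (standard error 0.06, adjusted P = 5.7e-11) (edgeR). From low to high the groups were tunicamycin, naive, set A, IL-4/IL-13, set B and Sal003, and the last pair alone did not differ beyond its spread (set B against Sal003 -0.09, 95% interval -0.21 to 0.03).

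**Figure D2:**
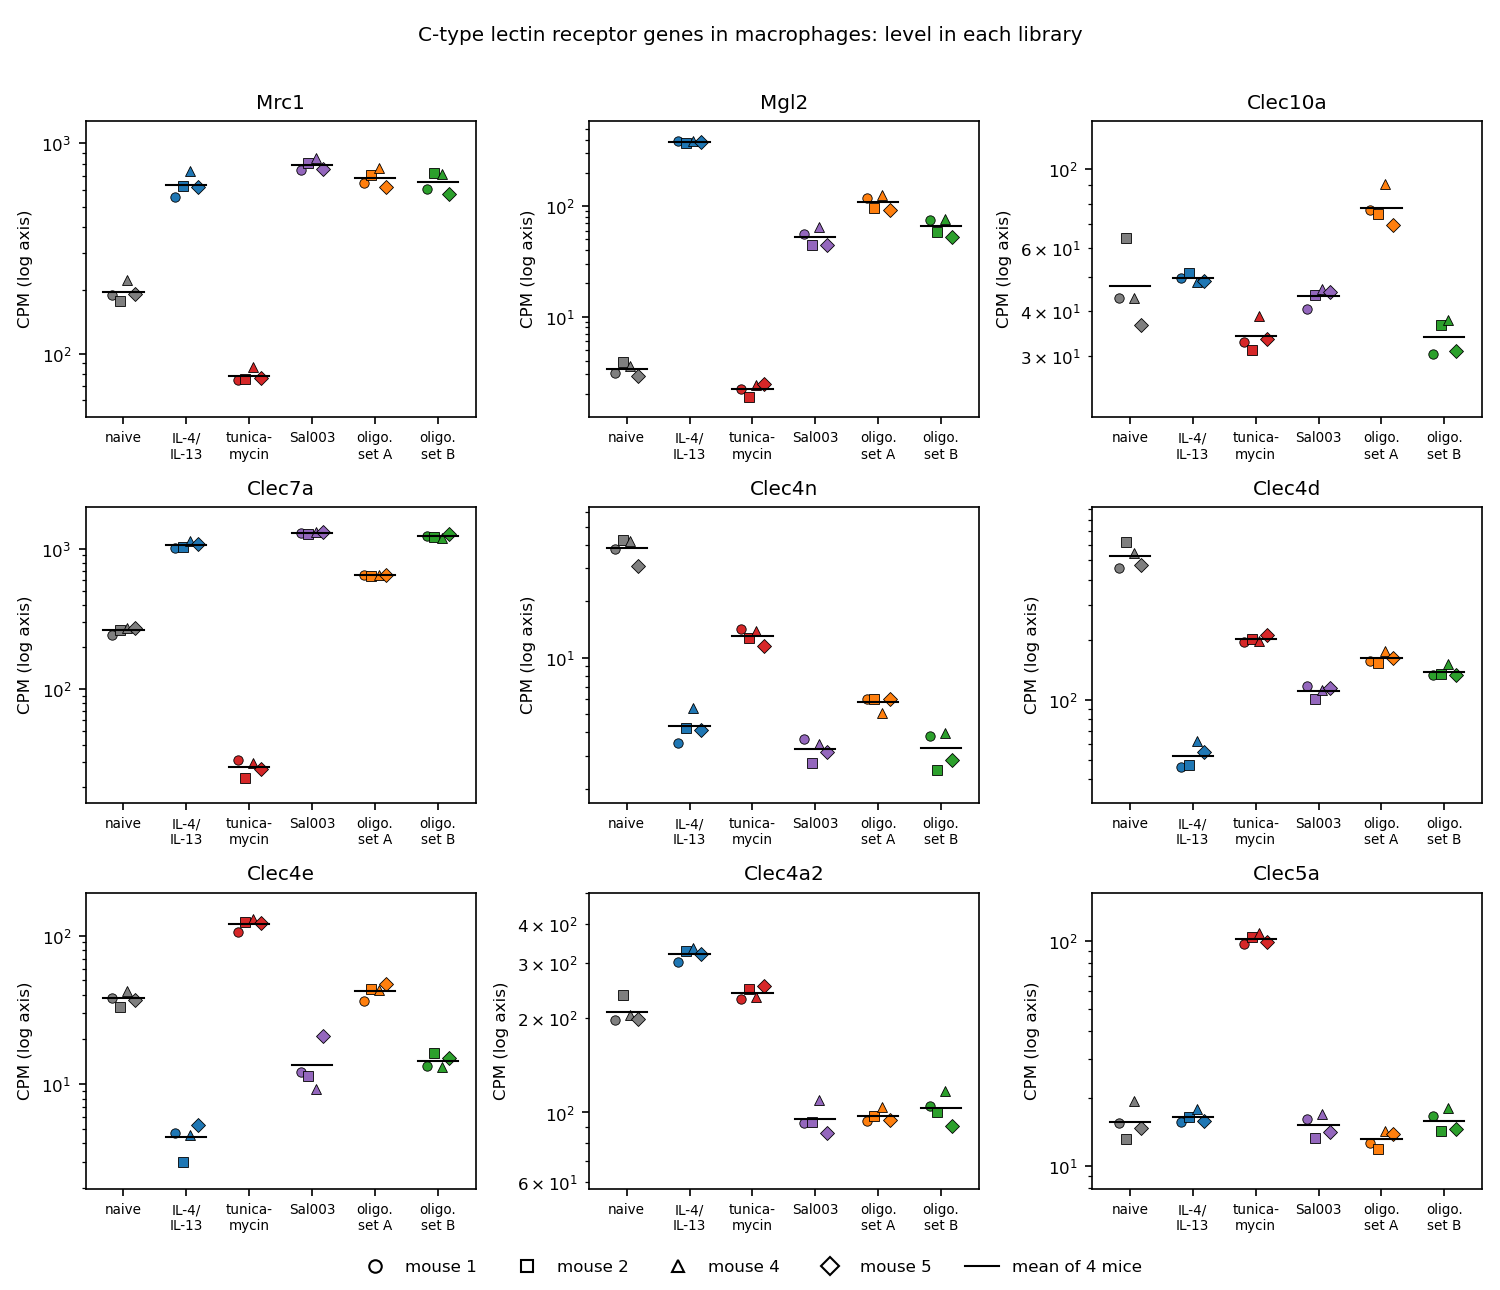
Level of each receptor gene in every library, in CPM on a log axis, 1 panel per gene, with the 6 groups along the horizontal axis. Symbols mark mice 1, 2, 4 and 5 and black lines the mean of the 4 mice. Clec4n, Clec4d and Clec4e have their lowest or near-lowest points with IL-4/IL-13, where Mgl2 has its highest, and Clec4e and Clec5a stand highest with tunicamycin.

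Mrc1, Mgl2 and Clec7a were the 3 genes that the cytokines raised by at least 2.5-fold, and they lost unlike parts of that rise. On the log2 CPM scale and within each mouse, tunicamycin removed 178 ± 7.78% of the rise of Mrc1 (mean ± SD, n = 4), 108 ± 5.18% of that of Mgl2 and 261 ± 15.7% of that of Clec7a, where over 100% means a level under the naive one. Sal003 removed 42.5 ± 3.92% of the rise of Mgl2, whereas the values were -19.2 ± 6.35% for Mrc1 and -14.2 ± 3.37% for Clec7a, negative where the level exceeded that with the cytokines alone. In set A the loss was 26.9 ± 2.88% for Mgl2, 35.7 ± 3.50% for Clec7a and -6.78 ± 6.25% for Mrc1. Set B gave 37.6 ± 3.75% for Mgl2, -9.92 ± 4.73% for Clec7a and -2.69 ± 8.62% for Mrc1. Mgl2 thus lost part of its rise in 4 of 4 mice with each inhibitor. These shares depend on the scale, since on linear CPM Mgl2 lost 72.3% in set A, 83.6% in set B and 87.2% with Sal003. On that scale Clec7a lost 52.2% in set A, less than Mgl2 where it lost more on the log2 scale, and the values with Sal003 were -36.6% for Mrc1 and -29.3% for Clec7a.

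**Figure D3:**
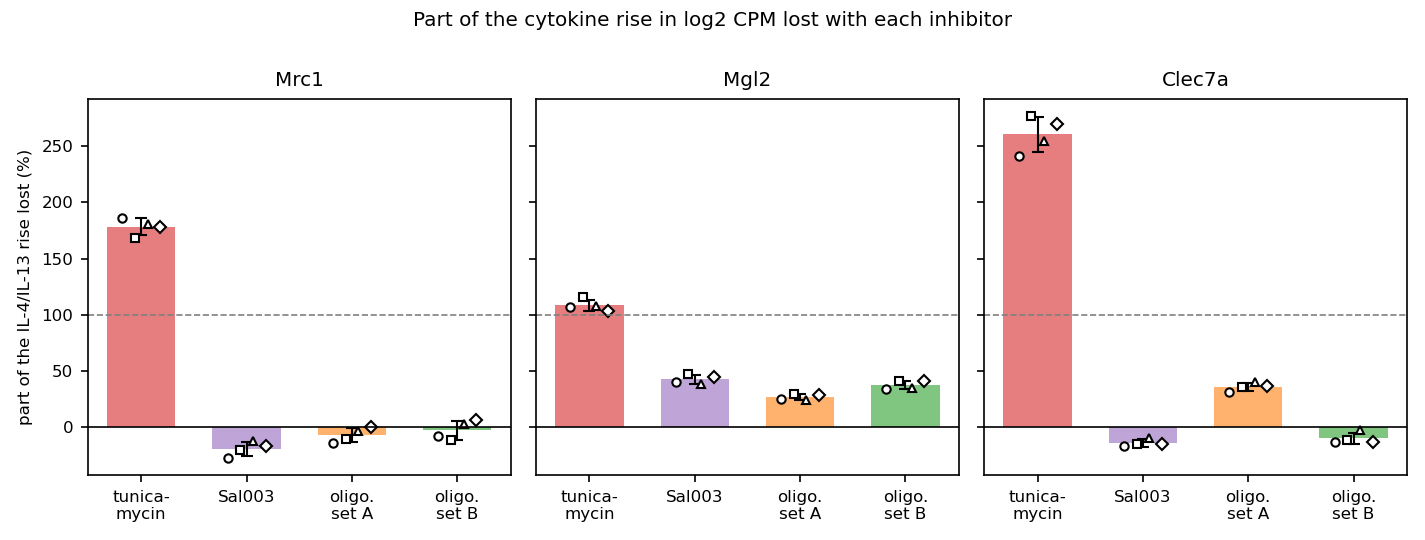
Percent of the rise from naive to IL-4/IL-13–treated macrophages, in log2 CPM, that was absent with each inhibitor, for Mrc1, Mgl2 and Clec7a. Bars are means of 4 mice, error bars are SD, symbols are single mice, and the dashed line at 100% marks the naive level. Only the bars of tunicamycin pass it, and in set A Clec7a (35.7%) and Mgl2 (26.9%) lost part of the rise while Mrc1 (-6.78%) did not. On linear CPM Clec7a and Mgl2 change places in set A.

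The Fc receptor γ chain–coupled receptors fell with IL-4/IL-13. All 3 rose with tunicamycin, and with the other inhibitors they differed. Clec4n (Dectin-2) had 38.3, 42.5, 42.1 and 31.1 CPM in naive libraries. The cytokines left 3.51, 4.24, 5.42 and 4.13 CPM, from 63 to 103 counts each. Its change on the log2 scale was -3.15 (standard error 0.13, adjusted P = 1.3e-16) by edgeR's quasi-likelihood test. Tunicamycin gave 14.3, 12.8, 14.0 and 11.5 CPM, between these groups and without overlap with either (1.60 (standard error 0.14, adjusted P = 7.8e-11), edgeR). The other inhibitors left the gene near its cytokine-treated level. Sal003 had 3.69, 2.76, 3.45 and 3.14 CPM, set A 6.01, 6.02, 5.08 and 6.05 CPM and set B 3.85, 2.53, 3.96 and 2.87 CPM, all 3 overlapping with IL-4/IL-13 alone. Their changes were -0.41, 0.42 and -0.40 (adjusted P = 0.037, 0.014 and 0.034, edgeR). Each of these calls was lost without some of the mice. For Sal003 the call was lost without mouse 2, 4 or 5, with values down to -0.30, adjusted P = 0.17 (edgeR). For set A it was lost without mouse 1, 2 or 5, with values down to 0.31, adjusted P = 0.14 (edgeR). For set B it was lost without mouse 2, 4 or 5 and in the model with those 2 groups alone, with values down to -0.32, adjusted P = 0.16 (edgeR). The means ran from Sal003 and set B, which did not differ beyond their spread (0.00, 95% interval -0.34 to 0.35), through IL-4/IL-13, set A and tunicamycin to naive.

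Clec4d (MCL), the most abundant of the 9 per exon length in naive macrophages, had 459, 617, 543 and 477 CPM there. With IL-4/IL-13 it fell to 45.9, 47.4, 62.3 and 55.0 CPM, a change on the log2 scale of -3.31 (standard error 0.09, adjusted P = 8.5e-20) by edgeR's quasi-likelihood test. Each inhibitor raised it without reaching the naive range. Tunicamycin gave 195, 202, 196 and 212 CPM (1.94 (standard error 0.09, adjusted P = 4.6e-16)) and Sal003 117, 101, 112 and 115 CPM (1.08 (standard error 0.09, adjusted P = 2.5e-10), edgeR). Set A had 157, 154, 175 and 162 CPM (1.62 (standard error 0.09, adjusted P = 4.0e-14)) and set B 134, 134, 151 and 133 CPM (1.39 (standard error 0.09, adjusted P = 2.0e-12), edgeR). All 16 inhibitor libraries lay above the 4 with the cytokines alone and below the 4 naive ones. From low to high the means ran IL-4/IL-13, Sal003, set B, set A, tunicamycin and naive, and each neighbor passed the test. Set B against Sal003 (0.31 (standard error 0.09, adjusted P = 0.012)) lost its call without mouse 4 (0.27, adjusted P = 0.064) or mouse 5 (0.34, adjusted P = 0.053, edgeR). Set A against set B did so without mouse 1 or 5, as given with that comparison.

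Clec4e (Mincle), which partners with MCL at the cell surface, had 38.3, 33.3, 42.7 and 36.7 CPM in naive libraries and 4.68, 2.98, 4.53 and 5.34 CPM with IL-4/IL-13. The change on the log2 scale was -3.12 (standard error 0.19, adjusted P = 2.3e-13) by edgeR's quasi-likelihood test, and the groups did not overlap. Tunicamycin gave 106, 124, 129 and 122 CPM, the highest level of the gene in any group. The change against the cytokines alone was 4.79 (standard error 0.18, adjusted P = 5.8e-18), and against naive macrophages it was 1.67 (standard error 0.14, adjusted P = 5.6e-11) (edgeR), so that Clec4e ended above the naive level where Clec4n and Clec4d ended below it. Set A had 36.4, 43.4, 43.0 and 47.5 CPM and changed by 3.29 (standard error 0.18, adjusted P = 5.3e-14) (edgeR). These libraries overlapped with the naive ones, and the difference of 0.17 did not pass the test (95% interval -0.12 to 0.46, adjusted P = 0.28, edgeR). Without mouse 2 it was 0.11, adjusted P = 0.56 (edgeR). Sal003 had 12.0, 11.4, 9.34 and 21.0 CPM, with mouse 5 highest, and set B 13.3, 16.1, 13.1 and 15.1 CPM. Sal003 thus changed it by 1.64 (standard error 0.20, adjusted P = 2.7e-07) and set B by 1.73 (standard error 0.20, adjusted P = 7.3e-08) in the edgeR fit. The order of the means was IL-4/IL-13, Sal003, set B, naive, set A and tunicamycin, in which Sal003 and set B (0.10, 95% interval -0.25 to 0.45) and naive and set A were the neighbors that did not differ beyond their spread.

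Clec4a2, of the DCIR family, behaved unlike Clec4n, Clec4d and Clec4e, which lie near it on chromosome 6. It had 198, 236, 204 and 198 CPM in naive libraries and 302, 326, 334 and 319 CPM once treated with the cytokines, a rise of 0.62 (standard error 0.07, adjusted P = 5.4e-08) by edgeR's quasi-likelihood test. Tunicamycin left 230.4, 248, 234 and 253 CPM, a smaller change (-0.41 (standard error 0.07, adjusted P = 1.5e-05)) than with any other inhibitor. Against naive macrophages the tunicamycin value was 0.21 (standard error 0.07, adjusted P = 0.012), a call that was lost with upper-quartile scaling (0.14, adjusted P = 0.092) and with at least 10 counts required in every library (0.15, adjusted P = 0.053, edgeR). The other 3 inhibitor groups were close together and below every naive library. Sal003 had 92.7, 93.3, 109 and 85.9 CPM (-1.75 (standard error 0.07, adjusted P = 1.7e-15), edgeR). Set A had 94.1, 97.8, 104 and 94.7 CPM (-1.71 (standard error 0.07, adjusted P = 3.5e-16), edgeR). Set B had 105, 100.4, 117 and 90.3 CPM (-1.63 (standard error 0.07, adjusted P = 3.3e-15), edgeR). Sal003, set A and set B, in this order of means, did not differ beyond their spread, with 0.03 for set A against Sal003 and -0.08 for set A against set B (adjusted P = 0.72 and 0.42, edgeR). Above them came naive, tunicamycin and IL-4/IL-13. The values of Clec4a2 are less certain where reads fall in the sequence it shares with Clec4a4 and Clec4b1. These hold 3.7% and 2.2% of its 50-base stretches, and 1.9% of its 100-base stretches occur in any other gene. Clec4b1 fell in the same 3 groups, and the part of shared reads in the values was not tested.

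Clec5a, the DAP12-coupled receptor, changed with tunicamycin above all. Naive libraries had 15.6, 13.2, 19.5 and 14.8 CPM and IL-4/IL-13–treated ones 15.7, 16.5, 18.0 and 15.8 CPM, which overlapped, and the change of 0.07 did not pass the test (95% interval -0.14 to 0.28, adjusted P = 0.59, edgeR). With tunicamycin the level was 97.3, 105, 109 and 99.3 CPM, above all 20 other libraries. The change against the cytokines alone was 2.64 (standard error 0.09, adjusted P = 1.6e-18), and against naive macrophages it was 2.70 (standard error 0.09, adjusted P = 1.1e-18) (edgeR). Sal003 had 16.2, 13.3, 17.1 and 14.2 CPM, a difference of -0.12 (95% interval -0.33 to 0.09, adjusted P = 0.34, edgeR). Set B had 16.7, 14.3, 18.1 and 14.6 CPM, with -0.06 (95% interval -0.27 to 0.15, adjusted P = 0.66, edgeR). Set A, with 12.6, 11.9, 14.3 and 13.9 CPM, was lower than IL-4/IL-13 alone by -0.33 (standard error 0.10, adjusted P = 0.0068) in the edgeR fit. From set A through Sal003, naive, set B and IL-4/IL-13 no neighboring means passed the test, and tunicamycin was above them all. Set A against Sal003 passed with the mouse as a replicate block (-0.21, adjusted P = 0.025, edgeR).

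Set side by side over the inhibitors, all of them compared with 1 set of 4 cytokine-treated libraries, tunicamycin moved each of the 9 genes. With tunicamycin 4 of them rose (Clec4n, Clec4d, Clec4e and Clec5a) and 5 fell, where 38.7% of all genes tested rose and 37.6% fell. By the rule of at least 2.5-fold all 4 that rose and 3 that fell passed, against 8.56% and 14.0% of all genes. With Sal003 4 rose and 3 fell, against 25.9% and 24.6% of all genes, and 1 rose (Clec4e) and 2 fell (Mgl2 and Clec4a2) by at least 2.5-fold, against 2.68% and 5.04%. Set A had 4 up and 4 down, against 34.0% and 32.2%, of which 2 rose (Clec4d and Clec4e) and 2 fell (Mgl2 and Clec4a2) by at least 2.5-fold, against 4.79% and 7.96%. Set B had 3 up and 4 down, against 27.9% and 26.4%, and the same genes passed the rule of size as in set A, against 2.94% and 5.02%. The median log2 fold change of the 9 genes was -0.41, -0.12, 0.11 and -0.06 in these comparisons, and that of all genes lay between 0.00 and 0.01. Mgl2 and Clec4a2 fell in all 4, and Clec4d and Clec4e rose in all 4.

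The oligomycin sets, which differ by ISRIB, differed in 7 of the 9 receptor genes. Set A was higher than set B in Mgl2, Clec10a, Clec4n, Clec4d and Clec4e and lower in Clec7a and Clec5a, while 19.9% of all genes tested were higher and 21.3% lower. Clec4e had the largest difference, 1.56 (standard error 0.15, adjusted P = 1.0e-08) by edgeR's quasi-likelihood test, and was the only one of the 9 past 2.5-fold, which 1.14% of all genes were upward and 1.48% downward. Clec10a followed with 1.20 (standard error 0.12, adjusted P = 7.5e-09) and Clec7a with -0.92 (standard error 0.06, adjusted P = 5.0e-12) (edgeR). The libraries of the sets did not overlap for these 3 genes. Clec4n differed by 0.82 (standard error 0.15, adjusted P = 8.5e-05) and Mgl2 by 0.73 (standard error 0.12, adjusted P = 1.8e-05), again without overlap (edgeR). The difference of Clec4d was 0.23 (standard error 0.09, adjusted P = 0.033), and was lost without mouse 1 (0.24, adjusted P = 0.078) or mouse 5 (0.22, adjusted P = 0.14, edgeR). That of Clec5a was -0.27 (standard error 0.10, adjusted P = 0.036), and was lost without mouse 1 (-0.22, adjusted P = 0.23), without mouse 2 (-0.27, adjusted P = 0.056) and with upper-quartile scaling (-0.23, adjusted P = 0.055, edgeR). For Mrc1 (0.06, 95% interval -0.12 to 0.25) and Clec4a2 (-0.08, 95% interval -0.23 to 0.07) no difference passed the test. Against IL-4/IL-13 alone the sets moved in opposite directions for Clec10a, which rose by 0.66 in set A and fell by 0.54 in set B, and for Clec7a, which fell by 0.72 in set A and rose by 0.20 in set B. Which set holds ISRIB cannot be told from the labels, so these differences have no direction with respect to ISRIB.

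Per exon length, taken over all annotated exons of a gene, the genes could be compared with each other. This length can exceed that of the transcripts present, unequally between genes, so the order of genes in TPM is approximate. In naive macrophages Clec4d led with a mean of 1573 TPM, before Clec7a with 484 TPM and Clec4a2 with 345 TPM. In IL-4/IL-13–treated macrophages Clec7a led with 1858 TPM, before Mgl2 with 762 TPM, Clec4a2 with 499.7 TPM and Mrc1 with 369.9 TPM, and Clec4d was at 149.8 TPM. With tunicamycin the order was Clec4d with 648 TPM, Clec4a2 with 425 TPM, Clec4e with 125 TPM and Clec5a with 119 TPM, and Clec7a was at 54.4 TPM. Sal003, set A and set B kept Clec7a first, with 2233, 1257 and 2165 TPM, and Mrc1 at 454, 446 and 388 TPM. Mgl2 stood at 102, 241 and 133 TPM in these groups. Summed over the 9 genes, the level was 2635 to 2915 TPM in the naive libraries and 3642 to 3940 TPM with IL-4/IL-13. It was 1498 to 1587 TPM with tunicamycin, 3292 to 3407 TPM with Sal003, 2799 to 2942 TPM in set A and 3299 to 3397 TPM in set B. The tunicamycin libraries had the lowest sums of all 24 and the IL-4/IL-13–treated ones the highest, without overlap with any other group.

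**Figure D4:**
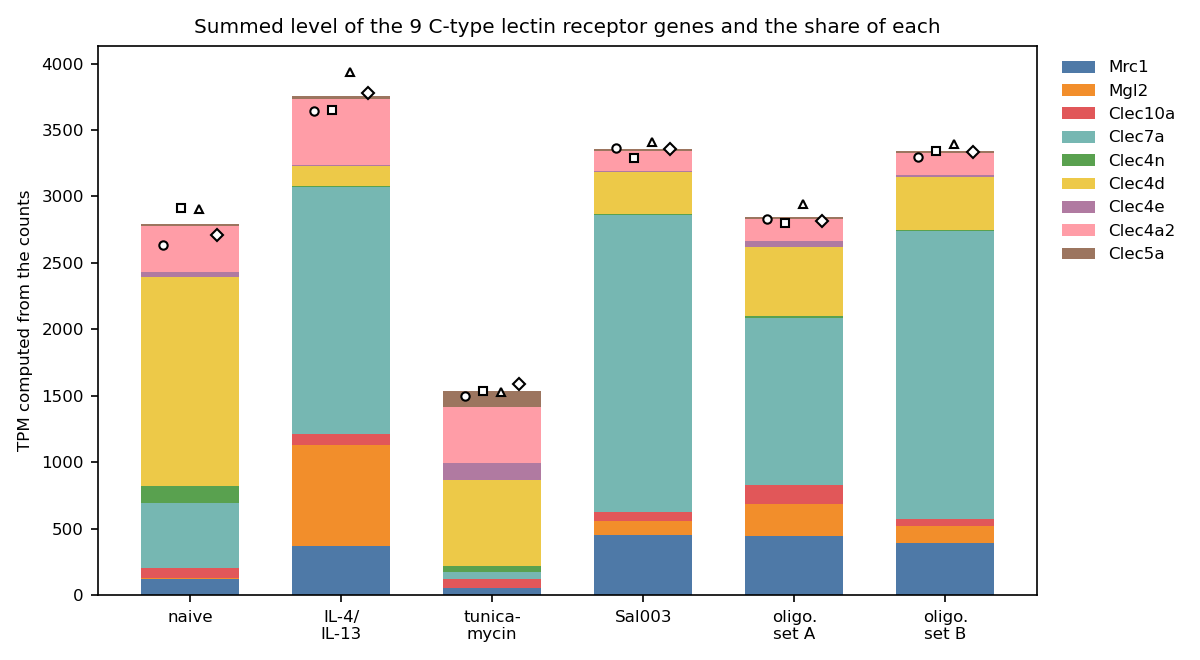
Summed level of the 9 receptor genes in TPM computed from the counts, by group, with the mean of each gene as a colored segment and the sum in each mouse as a symbol. The naive bar is mostly Clec4d (1573 TPM), the IL-4/IL-13 bar mostly Clec7a (1858 TPM) with Mgl2 (762 TPM), and the tunicamycin bar is the lowest.

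As a description of likeness, log2 CPM values of the 9 genes were correlated over the 24 libraries, which share mice and groups. Mrc1 and Clec7a were the most alike pair (Pearson r = 0.96), followed by Mrc1 and Mgl2 (0.88), Clec4n and Clec4d (0.84) and Mgl2 and Clec7a (0.82). Clec7a and Clec5a were the most opposed (-0.90). Mgl2 and Clec10a, with their shared sequence, had 0.43, and Clec4a2 and Clec4d, in the same stretch of chromosome 6, had -0.05. Among 10597 tested genes with a mean of at least 50 counts, the genes most like Mrc1 were Angptl2 (r = 0.989), Dhrs9 (0.988) and Ezr (0.985). For Mgl2 they were Il27ra (0.988), Gda (0.982) and Klf9 (0.980), and for Clec7a Anxa1 (0.994), Csf2rb (0.992) and Gatm (0.992). Clec4n was most like Pip4k2a (0.972), Otulinl (0.969) and Rdh10 (0.960), Clec4d like Ifnar2 (0.980), Rab20 (0.973) and Gpr162 (0.966), and Clec4e like Gm6377 (0.986), Adpgk (0.983) and Aoah (0.981). Clec4a2 was most like Rpa2 (0.971), Abca7 (0.962) and Acap3 (0.953), and Clec5a like Dnajc3 (0.987), Tfg (0.986) and Gosr2 (0.982). Clec5a was high with tunicamycin alone (mean 103 CPM, against 13.2 to 16.5 CPM in the other groups). Its r values, also that with Clec7a, thus rest mainly on the tunicamycin libraries. No gene was closely like Clec10a, the nearest being Pls3 (0.744), Rgs12 (0.730) and Gm15832 (0.707).

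Of 47 other C-type lectin genes, chosen as a family, 23 passed the filter on low counts. With IL-4/IL-13, 5 of the 23 rose and 11 fell, against 30.1% and 30.4% of all genes tested. Olr1, the lectin-like receptor of oxidized low-density lipoprotein, rose by 4.90 (standard error 0.18) on the log2 scale. Cd207 (langerin), Cd93 and Clec12a, an inhibitory receptor, fell, with -4.32 (standard error 0.37), -1.83 (standard error 0.11) and -1.58 (standard error 0.06). With tunicamycin 8 rose and 14 fell, against 38.7% and 37.6% of all genes. Olr1 fell from 9.93 ± 0.41 CPM (mean ± SD, n = 4) to 0.063 ± 0.049 CPM, at most 3 counts in any library. Clec2i changed by -3.23 (standard error 0.17) and Cd72, an inhibitory receptor, by -2.37 (standard error 0.13), whereas Cd69, a marker of activation, rose by 5.05 (standard error 0.21). With Sal003 5 rose and 11 fell (25.9% and 24.6% of all genes), in set A 5 and 14 (34.0% and 32.2%), and in set B 4 and 13 (27.9% and 26.4%). Clec4b1, in the gene cluster of Clec4a2, fell in these 3 groups, with -2.47 (standard error 0.16), -3.84 (standard error 0.19) and -2.37 (standard error 0.16). Cd93 rose in them, with 1.67 (standard error 0.10), 1.29 (standard error 0.10) and 1.56 (standard error 0.10). Between the oligomycin sets 2 were higher in set A and 9 lower (19.9% and 21.3% of all genes), among the latter Cd72 (-1.55 (standard error 0.13)), Clec4b1 (-1.47 (standard error 0.21)) and Clec12a (-0.78 (standard error 0.06)).

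Genes of signaling routes tied to some of these receptors, the adaptors, kinases and CARD9 complex, were all tested, 31 in number. With IL-4/IL-13 9 rose and 17 fell, against 30.1% and 30.4% of all genes, with 2 in each direction past 2.5-fold. Prkcd, the kinase that links Syk to CARD9, rose by 1.88 (standard error 0.06) and the ubiquitin ligase gene Cblb by 1.98 (standard error 0.06), while the phosphatase gene Ptpn6 fell, with -1.33 (standard error 0.05). With tunicamycin 10 rose and 18 fell (38.7% and 37.6% of all genes), Prkcd by 2.26 (standard error 0.06). Prkcd also fell in the other inhibitor groups, with -0.95 (standard error 0.05) for Sal003, -1.83 (standard error 0.06) for set A and -0.95 (standard error 0.05) for set B. So did the kinase gene Fgr, with -1.26 (standard error 0.13), -2.48 (standard error 0.14) and -1.91 (standard error 0.13). The counts of genes that rose and fell were 7 and 16 for set A (34.0% and 32.2% of all genes), 9 and 8 for set B (27.9% and 26.4%) and 10 and 12 for Sal003 (25.9% and 24.6%). Set A against set B had 1 higher and 17 lower (19.9% and 21.3% of all genes), among the lower Tyrobp, which encodes DAP12, the partner of Clec5a (-0.75 (standard error 0.07)), and Malt1 of the CARD9 complex (-0.71 (standard error 0.09)).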

How the data were processed

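RNA sequencing of 24 macrophage libraries was analysed, 4 mice in each of 6 groups. The members and gene lists were chosen with earlier results of these data known. The authors used Cutadapt 1.8 for trimming, dropped reads of ribosomal RNA and of low complexity, mapped to GRCm39 by STAR 2.7, and ran htseq-count 0.9.1, which leaves out reads with several alignments (versions from the submitters' processing notes). These deposited values are raw counts. The strand setting is not given in the sources used here. Totals that belong to no gene (12.7% to 15.2% of reads) were left out. The authors also deposited TPM values, which were not used, since the table has 28 header names over 25 cells per line; TPM given here was computed from the counts and exon lengths. Gene counts summed to 16238727 to 26725278 per library, and the limit of 3 counts covers counting error only.

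Differences were tested with edgeR 4.0.16 in R 4.3.3 (TMM, filterByExpr by group, quasi-likelihood test, 1 model over all libraries, Benjamini-Hochberg adjustment over 13679 genes). Calls needed an adjusted P under 0.05, and where stated also 2.5-fold, the thresholds the study used. Log2 CPM had a prior count of 2. Libraries of a group differed by more than sampling noise (chi-square per gene 2.19 to 35.9, highest for the naive library of mouse 2), and the median biological coefficient of variation was 7.06%. Same-numbered libraries come from the same mouse, by the labels. Their deviations from group means had a median correlation of 0.24 (56 of 60 pairs above 0.1), against -0.05 for different mice. The model had no block for the mouse, since the study states none. Named list genes were up to 4 per list and comparison, with adjusted P under 0.05, the same direction in 4 mice, a mean of at least 50 counts and the largest log2 fold change, and a gene that met this rule is not reported here. Alternatives were DESeq2 1.42.0, upper-quartile scaling and RLE size factors, other filters on low counts, only the groups compared, the mouse as a block, leaving out each mouse, and summing Mgl2 and Clec10a. Sequences and coordinates are from GRCm39 with GENCODE annotation; 56323 of the 56884 gene identifiers were found there.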

Additional observations from a re-analysis of the deposited data

Results flagged for a closer look

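In all, 4 values stood apart from the other 3 mice of their group by Dixon's criterion, among 54 sets of a gene and a group, and chance flags about 1 in 20. With tunicamycin, Mrc1 was at 85.9 CPM in mouse 4, against 75.1 to 76.4 CPM in the others. In oligomycin set A, Clec4n was at 5.08 CPM in mouse 4, against 6.01 to 6.05 CPM. In oligomycin set B, Clec4d was at 151 CPM in mouse 4, against 133 to 134 CPM. In naive macrophages, Clec4a2 was at 236 CPM in mouse 2, against 198 to 204 CPM.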

How the results depend on the processing

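The 135 log2 fold changes of the 9 genes had 1515 values under the alternatives. Of these, 1464 kept their side of the threshold, among them 19 that changed sign without passing the test either way. Another 31 lost the call, 15 gained one, and 5 changed sign with a call in the main model, the alternative or both. The 5 are Clec10a with the counts of Mgl2 and Clec10a summed, where Mgl2 supplies most of the reads that change. The values were -1.21 for set A against IL-4/IL-13, 0.94 for Sal003 against naive and 0.99 for set B against naive. They were -1.46 for tunicamycin against set B and 0.048 for set B against Sal003. The last did not pass the test (adjusted P = 0.84, edgeR). There the call of Clec10a alone (-0.38, adjusted P = 0.026, edgeR) was lost. The number of receptor genes below set B in set A, 2, was 1 with upper-quartile scaling and ran from 1 to 2 when a mouse was left out (1 without mouse 1 or 2). In the paired analysis, with the mouse as a replicate block, 3 calls were gained, Mgl2 in set B against Sal003 (0.33), Mrc1 in set A against Sal003 (-0.21) and Clec5a in set A against Sal003 (-0.21), and no other call changed. Calls lost when a mouse was left out are given beside the results; among comparisons not described there, Mrc1 and Clec10a in set B against Sal003 and Clec5a in set A against naive lost theirs without some mice. The median of all genes moved by less than 0.1 with any scaling. On linear CPM the part of the rise lost with tunicamycin was 127% for Mrc1, 100.3% for Mgl2 and 129% for Clec7a.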

Other observations

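Of 12 cytokine and chemokine genes of the CARD9 route, 10 were tested. With IL-4/IL-13 none rose and 8 fell, among them Il1b (-4.98 (standard error 0.29) on the log2 scale), Il10 (-4.06 (standard error 0.33)) and Tnf (-1.67 (standard error 0.19)). With tunicamycin 8 rose and none fell, the largest change being that of Il6, from 0.071 ± 0.056 CPM (mean ± SD, n = 4, at most 3 counts in any library) to 103 ± 9.40 CPM. Cxcl2 changed by 5.11 (standard error 0.31), Ccl3 by 5.06 (standard error 0.13) and Ccl4 by 2.69 (standard error 0.22). Sal003 raised 2 of them, set A 3 and set B 3 with 1 lower (edgeR's quasi-likelihood test). Of all genes, 25.9% rose with Sal003 and 34.0% in set A, and in set B 27.9% rose and 26.4% fell. In set A against set B 2 were higher and 1 lower, against 19.9% and 21.3% of all genes. With IL-4/IL-13 30.1% of all genes rose and 30.4% fell, and with tunicamycin 38.7% and 37.6%. For Il6, set A (18.0 ± 1.78 CPM) stood above set B (0.81 ± 0.11 CPM) by 4.48 (standard error 0.16) on the log2 scale.

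Of 15 genes for transcription factors and receptors of the IL-4/IL-13 route and of lectin genes, 6 rose and 6 fell with IL-4/IL-13. Egr2 rose by 4.91 (standard error 0.08), Irf4 by 4.51 (standard error 0.11), Klf4 by 3.24 (standard error 0.09) and Myc by 2.93 (standard error 0.11). With tunicamycin 6 rose and 8 fell, with Irf4 at -7.61 (standard error 0.14), Egr2 at -6.88 (standard error 0.09), Cebpa at -3.12 (standard error 0.08) and Cebpd at 3.44 (standard error 0.07). The counts were 4 and 6 with Sal003, 5 and 6 for set A, 3 and 4 for set B and 5 and 7 for set A against set B. Of 8 ISR genes 7 were tested, and Ddit3 was left out because its symbol matched 2 identifiers. With IL-4/IL-13 4 rose and 2 fell, with tunicamycin 6 rose and 1 fell, with Sal003 5 and 1, for set A 6 and 1, for set B 6 and 0, and for set A against set B 5 and 1. In the last comparison Trib3 differed by 1.89 (standard error 0.07), Ppp1r15a by 1.54 (standard error 0.08) and Atf4 by 0.56 (standard error 0.07). The shares of all genes that rose and fell are those given with the receptor genes. Trib3 and Chac1 had the largest changes with tunicamycin, 7.87 (standard error 0.11) and 6.95 (standard error 0.15).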
